A study of Mus musculus with 120 samples.

Results

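The genes described here are 53 mouse genes for potassium channels and the subunits that accompany them. They were chosen from the channel families with earlier results of these data known. Of these 53, 22 (41.5%) had at least 1 differentially methylated window in or near them, and 31 had none. Among all coding genes 26.7% had one. With the family genes left out of the 53 counted too, 33 of 99 genes had a window. Whole-genome bisulfite sequencing was run on 120 libraries of hippocampus and blood from wild-type mice and APP-nlgf mice, an App knock-in with a humanised amyloid-beta sequence and familial Alzheimer mutations. Each tissue was taken at postnatal weeks 3, 8 and 24, with 10 wild-type and 10 APP-nlgf libraries per tissue and week and 5 of each sex in every group. The knock-in is in the germ line, so all cells of the APP-nlgf animals carry it, while whole hippocampus and whole blood are mixtures of cell types. The authors compared the genotypes within each of the 6 tissue and week combinations with sex as a covariate and deposited the 1 kb windows they called. A window was given to a gene if it overlapped the gene body or lay within 10 kb of it on mm10. This placed 39 of the 8961 deposited windows at the channel genes, 37 of them inside a gene body. Differences are in percentage points of methylation and were read as APP-nlgf less wild type, which rests on how the comparison is named and nothing else, so "lower" means less methylation in APP-nlgf mice. Only called windows with the authors' adjusted p under 0.1 and a difference of at least 10 points were analysed here. Values per library and coverage were not, so no spread between libraries and no depth can be given beside a difference. Strain, pooling and whether blood and hippocampus came from the same animals are not given in the labels.

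Potassium channels set the resting potential of a cell and end its action potentials. Voltage-gated alpha subunits (Kcna, Kcnb, Kcnc, Kcnd, Kcnh and Kcnq genes) open on depolarisation, inward rectifiers (Kcnj) hold the membrane near rest, and K2P channels (Kcnk) carry leak current. Calcium- or sodium-activated channels (Kcnma1, Kcnn and Kcnt genes) follow spikes with hyperpolarisation. Auxiliary subunits such as the Kcnip proteins, the Kcnab beta subunits and the peptidase-like proteins Dpp6 and Dpp10 set the density and kinetics of Kcnd channels in hippocampal dendrites or of Kcna channels in axons. HCN channels are related in structure but pass mixed cations rather than potassium alone. In blood, potassium channels are known from lymphocytes and macrophages. Methylation of CpG dinucleotides is low at active CpG-rich gene starts and high in most gene bodies.

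Starts of 5 channel genes were covered by a window, all in blood at week 8 and all lower in APP-nlgf. That is 5 of the 64 listed starts of channel genes (7.81%), beside 1575 of 32851 (4.79%) over all genes, of which 1574 were lower. In the other comparisons 6 to 35 starts of any gene were covered. The 5 sequences are shown because these are the places where a methylation difference reached a listed gene start. They are RefSeq promoter entries of GRCm38.p6, 250 bases before to 50 after the start, written 5′ to 3′ on the strand of the gene, with each CpG in capitals.
Kcnq5, chr1:21962601-21962900, minus strand: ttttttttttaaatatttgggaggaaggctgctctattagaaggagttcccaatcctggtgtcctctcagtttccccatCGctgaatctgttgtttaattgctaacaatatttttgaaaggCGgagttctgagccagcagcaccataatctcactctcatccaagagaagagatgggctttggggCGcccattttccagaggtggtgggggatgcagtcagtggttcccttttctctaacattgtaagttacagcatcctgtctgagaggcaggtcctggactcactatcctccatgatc
Kcnk1, chr8:125994852-125995151, plus strand: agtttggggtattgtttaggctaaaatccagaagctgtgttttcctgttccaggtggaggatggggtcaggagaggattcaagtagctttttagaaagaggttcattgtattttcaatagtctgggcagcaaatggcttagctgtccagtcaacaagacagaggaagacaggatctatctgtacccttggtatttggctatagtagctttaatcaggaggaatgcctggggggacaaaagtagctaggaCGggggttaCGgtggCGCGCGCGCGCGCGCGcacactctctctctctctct
Kcna5, chr6:126535506-126535805, minus strand: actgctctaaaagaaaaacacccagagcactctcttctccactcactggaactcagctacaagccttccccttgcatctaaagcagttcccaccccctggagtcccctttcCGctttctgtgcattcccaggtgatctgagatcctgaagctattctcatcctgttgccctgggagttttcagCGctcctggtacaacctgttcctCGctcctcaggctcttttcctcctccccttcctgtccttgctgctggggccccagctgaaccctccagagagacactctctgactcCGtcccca
Dpp6, chr5:26817107-26817406, plus strand: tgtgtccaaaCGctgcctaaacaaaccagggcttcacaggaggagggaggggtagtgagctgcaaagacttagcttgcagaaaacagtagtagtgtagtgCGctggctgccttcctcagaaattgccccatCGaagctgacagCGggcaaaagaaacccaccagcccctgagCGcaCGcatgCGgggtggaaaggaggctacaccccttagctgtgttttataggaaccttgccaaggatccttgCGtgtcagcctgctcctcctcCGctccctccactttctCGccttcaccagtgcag
Kcnn3, chr3:89519914-89520213, plus strand: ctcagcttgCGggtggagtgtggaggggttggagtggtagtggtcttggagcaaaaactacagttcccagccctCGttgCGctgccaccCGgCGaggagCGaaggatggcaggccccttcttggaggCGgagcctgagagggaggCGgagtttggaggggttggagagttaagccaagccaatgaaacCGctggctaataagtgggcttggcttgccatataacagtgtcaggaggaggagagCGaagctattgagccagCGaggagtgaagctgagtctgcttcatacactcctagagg

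The stretches held 3 CpGs at Kcnq5, 4 at Kcna5, 10 at Kcnk1, 10 at Dpp6 and 11 at Kcnn3. Over all 32851 promoter entries the median was 7 CpGs, and over the 1575 entries whose start a blood week 8 window covered it was 22. So these 5 channel starts were poorer in CpG than the starts covered in that list as a whole. The windows held all 300 bases of the entries for Kcnq5, Kcna5 and Dpp6, 213 bases of that for Kcnn3 and 151 of that for Kcnk1. At Kcnk1, 8 of the CpGs stand in a short CG repeat just after the start. That listed start, at 125995102, lies inside the gene body, whose 5′ end is at 125993655. The Sp1 GC box GGGCGG, searched on both strands, was in none of the 5, and in 69.3% of the starts covered in that list, 35.7% of all entries and 50% of the 64 entries of channel genes. The cyclic AMP element TGACGTCA was also in none of the 5 (1.79% of all entries), and so was the E-box CACGTG (7.15%). No motif of the 3 contains another, and a missing match says only that the letters are not in these 300 bases.

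Kcnq5 has another listed start 708 bases downstream, just past the window's edge, shown for contrast and chosen after its values were seen. It held 20 CpGs.
Kcnq5 downstream start, chr1:21961893-21962192, minus strand: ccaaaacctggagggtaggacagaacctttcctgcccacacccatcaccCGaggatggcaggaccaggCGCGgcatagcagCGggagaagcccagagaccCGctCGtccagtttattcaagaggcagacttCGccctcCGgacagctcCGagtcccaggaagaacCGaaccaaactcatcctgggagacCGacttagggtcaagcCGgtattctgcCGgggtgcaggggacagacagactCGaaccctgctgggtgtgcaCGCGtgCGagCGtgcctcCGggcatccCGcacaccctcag

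The window held 192 of the 300 bases of that entry, with 11 of its 20 CpGs, and ended 59 bases from the downstream start. The difference is a single value for the whole 1 kb, so it cannot be assigned to either start of Kcnq5.

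**Figure D1:**
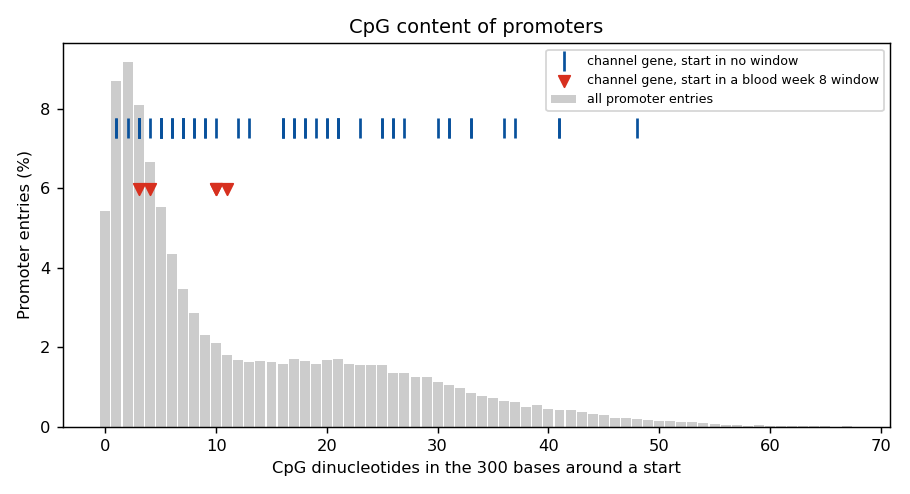
CpG dinucleotides (horizontal axis) in the 300 bases around each listed start, with the percentage of the 32851 promoter entries at each count as grey bars. Blue ticks mark the 59 entries of channel genes whose start no window covered and red triangles the 5 that a blood week 8 window covered (2 of them coincide at 10 CpGs). The covered channel starts lie between 3 and 11 CpGs, while the other channel entries run from 1 to 48.

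Promoter entries matched 42 of the 53 genes. Those without an entry were Kcna1, Kcnb2, Kcnd1, Kcnh3, Kcnq1, Kcnq3, Kcnk3, Kcnk9, Kcnn2, Kcnt1 and Hcn3.

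Across the 6 comparisons, windows at channel genes were mostly lower in APP-nlgf, 30 of 39 (76.9%), where 66.9% of all 8961 windows were lower. Blood at week 8 supplied 20 of those 30. That list also holds 4526 of the 8961 windows of all genes, 88.9% of them lower. In hippocampus 1 gene had a window at week 3, 5 at week 8 and 5 at week 24. The share of all 21631 coding genes with a window was 2.6%, 1.74% and 2.43% in these comparisons. In blood 4 genes had a window at week 3, 15 at week 8 and 0 at week 24, against 2.79%, 19.5% and 1.25% of coding genes. Channel genes are long (median 59.9 kb against 17.3 kb for coding genes), and long genes hold more windows, so the shares were also read by gene length. Among genes of 200 kb or more, 5 of 19 channel genes (26.3%) and 13.1% of 990 coding genes had a window in hippocampus at week 8. At week 24 these shares were 21.1% and 13.7%, and at week 3 they were 5.26% and 15.2%. In blood they were 15.8% in both sets at week 3, 42.1% and 37.8% at week 8, and 0% and 8.38% at week 24. Below 50 kb, 4 of 24 channel genes (16.7%) and 17.8% of coding genes had a window in blood at week 8. No channel gene of that length had one in another comparison, where few coding genes of that length did. Their shares were 1.47%, 0.887% and 1.22% in hippocampus at weeks 3, 8 and 24, and 1.55% and 0.593% in blood at weeks 3 and 24. With 19 genes in the longest class, 1 gene more or fewer moves a share by 5.26 points, and no test was made. Per length of genome within gene bodies and their 10 kb flanks, overlaps merged, channel genes had 0.078, 0.390 and 0.468 windows per Mb in hippocampus at weeks 3, 8 and 24, where coding genes had 0.395, 0.268 and 0.374. In blood they had 0.312, 1.79 and 0 windows per Mb, where coding genes had 0.426, 2.57 and 0.186.

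**Figure D2:**
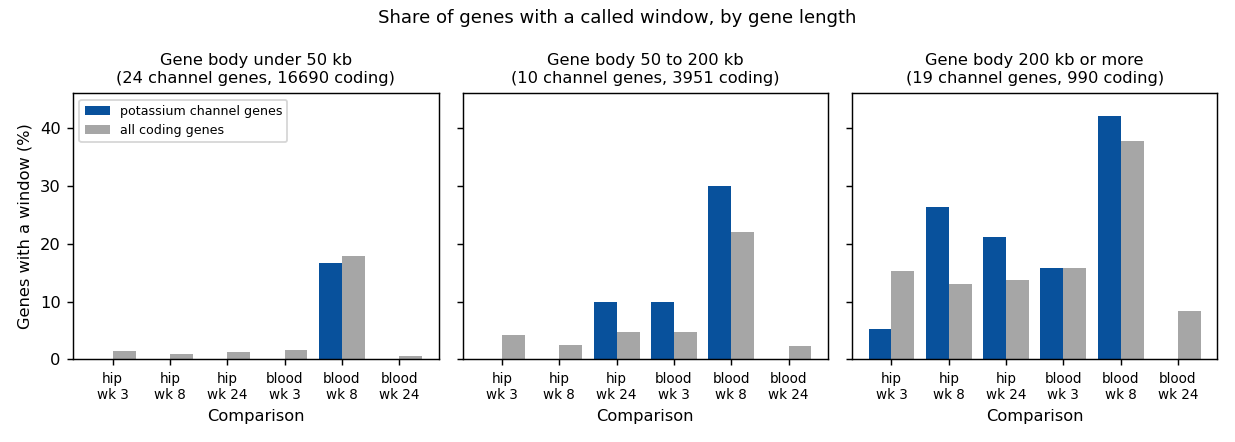
Percentage of genes with at least 1 called window (vertical axis) in each of the 6 comparisons, for channel genes (blue) and all coding genes (grey) in 3 classes of gene length. In genes of 200 kb or more the blue bar stands at 26.3% in hippocampus at week 8 beside a grey bar of 13.1%, and in blood at week 24 there is no blue bar in any class. Each channel gene is 5.26 points in the longest class.

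Of the 22 genes with a window, 17 had them in 1 comparison alone and 10 in blood at week 8 alone. In blood at week 8, 15 of the 22 had one, as had 4217 of the 5783 coding genes with a window in some comparison. How many coding genes were called in 1 comparison alone, or in both tissues, was not counted. Kcnh8, Kcnn2, Kcnip4, Dpp6 and Dpp10 had windows in 2 or more comparisons, and these same 5 were the genes with windows in both tissues. No position was called at a channel gene in more than 1 comparison. Recurrence was rare over all genes too, with 18 positions among the 8961 windows. The lack of one among 39 channel windows therefore does not set these genes apart. Genes with a window had a median length of 276 kb and those without of 37.1 kb.

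**Figure D3:**
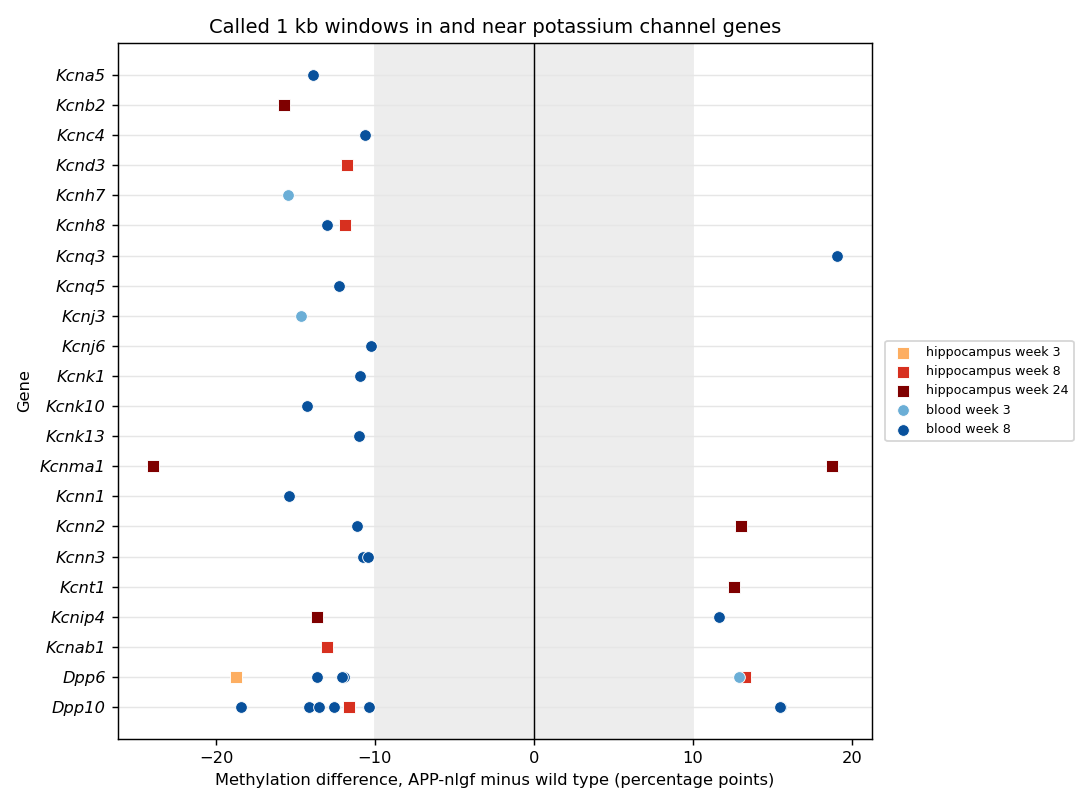
Every called window of the 22 channel genes with one, by its methylation difference in percentage points (horizontal axis, APP-nlgf minus wild type), with squares for hippocampus, circles for blood and 1 colour per week. The grey band holds differences under 10 points, which the authors' list leaves out. The dark blue circles of blood at week 8 lie left of 0 except at Kcnq3, Kcnip4 and Dpp10, where the higher windows of weeks 3 and 8 in blood coincide at 15.5 points.

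Dpp6 and Dpp10, which bind Kcnd channels and bring them to the surface of dendrites, held 14 of the 39 windows. They are also among the longest channel genes, with Dpp10 at 1510 kb. In Dpp6 the authors' deposited table gives -18.7 points in hippocampus at week 3 (chromosome 5, 26847001 to 26848000, adjusted p = 0.0273), the only channel window of that comparison. It lay 30.1 kb past the 5′ end of the gene. At week 8 the hippocampal window was higher instead, at 13.3 points in the authors' deposited table (adjusted p = 0.0233), and lay 97.9% of the way along the gene. These 2 windows are 861 kb apart, so they are different sites of the gene. Blood at week 8 had 3 lower windows in Dpp6, of -12.0, -13.6 and -12.1 points in the authors' deposited table, of which the first covers the 5′ start printed above. Blood at week 3 had 1 higher window of 12.9 points in the authors' deposited table. The 4 windows in the first 258 kb of Dpp6 were lower and the 2 at 613 and 891 kb were higher. The lower ones came from hippocampus at week 3 and blood at week 8 and the higher ones from the other two comparisons, so position and comparison cannot be told apart, and each sign was that of most windows in its list.

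Dpp10 had 8 windows, 6 of them in blood at week 8. Of those, the authors' deposited table lists 5 lower ones between -10.4 and -18.4 points and 1 higher one of 15.5 points. The largest was at chromosome 1, 123514001 to 123515000, where the authors' deposited table has an adjusted p of 0.00649. Blood at week 3 had a higher window of 15.5 points (adjusted p = 0.0442 in the authors' deposited table), 92 kb from that largest lower one of week 8. The hippocampal window of week 8, with -11.7 points in the authors' deposited table (adjusted p = 0.0792), stood between lower blood windows of the same week 40 and 41 kb to its sides. None of the Dpp10 windows covered its listed start, and the nearest lay 43559 bases after it. That start, at 124045559, lies inside the gene body, whose 5′ end is at 124845815 and has no promoter entry. The window nearest to this 5′ end lay 6.63% along the gene.

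The other auxiliary subunits had fewer. Kcnip4, a calcium-binding partner of Kcnd channels, stood at -13.7 points in hippocampus at week 24 (adjusted p = 0.0443) and at 11.6 points in blood at week 8 (adjusted p = 0.0164) in the authors' deposited table, at positions 166 kb apart. Kcnab1, a beta subunit that speeds inactivation of Kcna channels, stood at -13.0 points in hippocampus at week 8 in the authors' deposited table (adjusted p = 0.0880). Kcnip1 and Kcnab2 had no window.

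**Figure D4:**
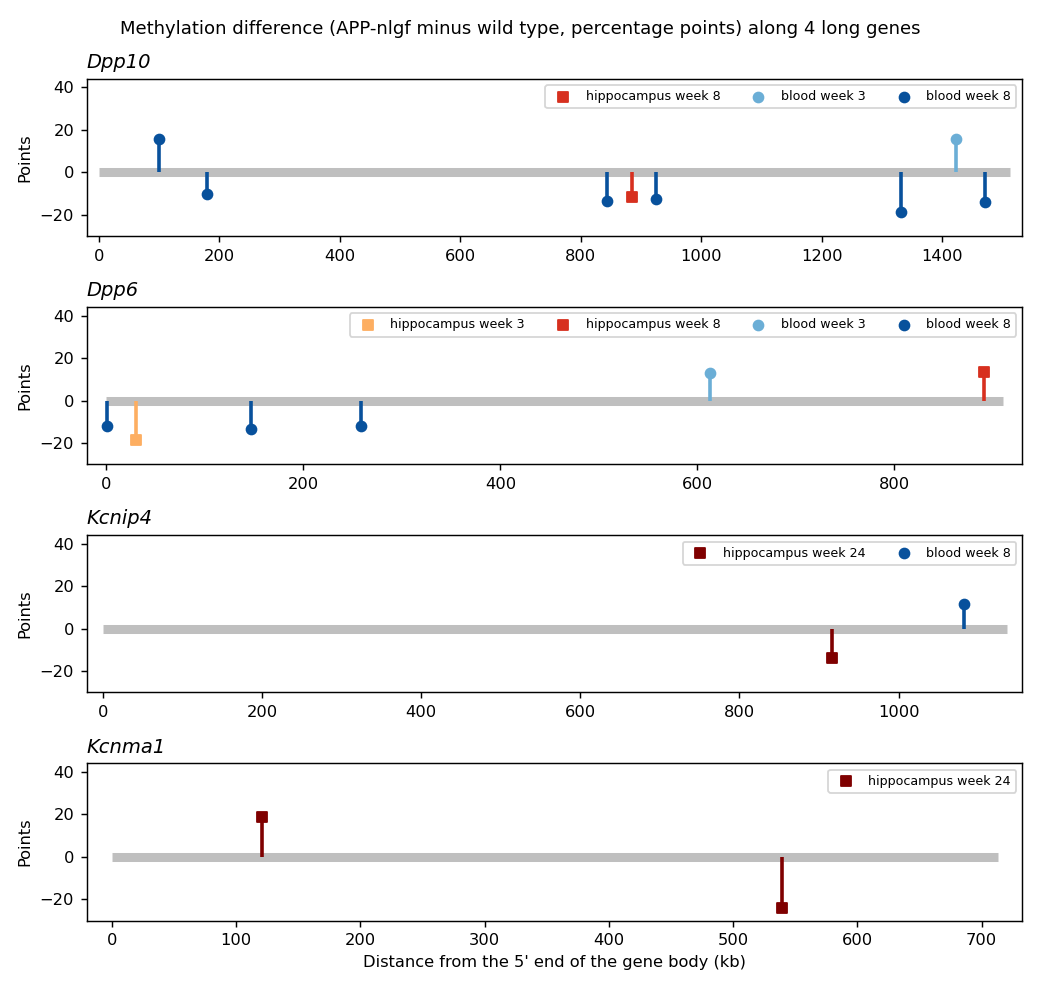
Called windows along Dpp10, Dpp6, Kcnip4 and Kcnma1, with distance from the 5′ end of the gene body in kb (horizontal axis) and the methylation difference in percentage points (vertical axis), squares for hippocampus and circles for blood. The grey bar is the gene body. Dpp6 shows lower windows up to 258 kb and higher ones at 613 and 891 kb, and Kcnma1 has 1 of each sign in hippocampus at week 24.

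Among voltage-gated alpha subunits, 8 of 23 genes had a window and all but 1 of their 9 windows were lower. Beside this, 26.7% of all coding genes had a window, and 66.9% of all windows were lower. The 6 Kcna genes among the 53, Shaker-type channels of axons and lymphocytes, had a window only at Kcna5, with -13.9 points in blood at week 8 in the authors' deposited table (chromosome 6, 126535001 to 126536000, adjusted p = 0.00230). Kcna1, Kcna2, Kcna3, Kcna4 and Kcna6 had none, although Kcna3 is the channel best known from T cells. Kcnc4, whose product serves fast repolarisation, had a blood week 8 window of -10.6 points in the authors' deposited table (adjusted p = 0.000211). That window stood 103 bases before the listed start but inside the gene body, whose 5′ end is at 107460287. It lay within 10 kb of Slc6a17 too. In hippocampus, Kcnb2, a delayed rectifier, stood at -15.7 points at week 24 in the authors' deposited table (adjusted p = 0.0972). Kcnd3, a pore subunit of the transient A-type current that Dpp6, Dpp10 and Kcnip4 accompany, had a week 8 window 4.89 kb before the gene, next to the antisense gene Kcnd3os, of -11.8 points in the authors' deposited table (adjusted p = 0.0801). Kcnc1, Kcnc2, Kcnd1 and Kcnd2 had no window.

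Of the 7 Kcnh genes among the 53, relatives of the ether-a-go-go channel, Kcnh7 and Kcnh8 had windows and Kcnh1, Kcnh2, Kcnh3, Kcnh4 and Kcnh5 had none. Kcnh8 was lower at week 8 in both tissues, at -13.0 points in blood (adjusted p = 1.30e-05) and -11.9 points in hippocampus (adjusted p = 0.0926) in the authors' deposited table. The blood window ended 709 bases before the gene's start and the hippocampal one lay 94.5% along the gene, 357 kb away. Kcnh7 stood at -15.5 points in blood at week 3 in the authors' deposited table (adjusted p = 0.0470). Kcnq3 and Kcnq5, subunits of the M-current that restrains repeated firing, went opposite ways in blood at week 8. The authors' deposited table has Kcnq5 at -12.2 points with an adjusted p of 4.22e-06 (chromosome 1, 21962001 to 21963000), the smallest of all channel windows and rank 179 of 4526 in its list. It has Kcnq3 at 19.1 points inside the gene body with an adjusted p of 0.0886, rank 4225 in the authors' deposited table. Kcnq1 had no window.

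The inward rectifiers and K2P channels among the 53 had 5 windows, all in blood and all lower. They were at 2 of 8 Kcnj genes and 3 of 6 Kcnk genes, where 26.7% of all coding genes had a window. The blood lists of weeks 3, 8 and 24 hold 1153, 4526 and 567 of all 8961 windows, so most windows of any gene were in blood. All but the Kcnj3 window came from blood at week 8, where 88.9% of all windows were lower. In blood at week 3, the list of the Kcnj3 window, 36.8% were lower. Kcnj3 and Kcnj6 encode subunits of the G-protein-gated channel that carries slow inhibition in neurons. The authors' deposited table gives -14.7 points at Kcnj3 in week 3 (adjusted p = 0.0618) and -10.3 points at Kcnj6 in week 8 (adjusted p = 0.0951). Kcnj2, Kcnj4, Kcnj9, Kcnj15, Kcnj16 and the astrocyte channel gene Kcnj10 had none. Of the K2P genes, Kcnk1 stood at -10.9 points (adjusted p = 0.000282), the stretch-sensitive Kcnk10 at -14.3 points (adjusted p = 0.0639) and Kcnk13, known from microglia, at -11.0 points (adjusted p = 0.00203), all in blood at week 8 in the authors' deposited table. The Kcnk10 window began 213 bases and the Kcnk13 window 502 bases after a listed start, and the Kcnk13 window was also within 10 kb of Tdp1. Kcnk2, Kcnk3 and Kcnk9 had no window.

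Calcium- and sodium-activated channels were the class with the most genes called in hippocampus at week 24, 3 of 7. In that comparison 2.43% of all coding genes had a window, and 13.7% of those of 200 kb or more. Kcnma1 (713 kb) and Kcnn2 (417 kb) are of that length, and Kcnt1 (54.5 kb) is shorter. None of the 3 had a window there with an adjusted p under 0.05. Kcnma1, the large-conductance channel that shapes the fast afterhyperpolarisation, held windows of both signs in hippocampus at week 24. The authors' deposited table gives -24.0 points at chromosome 14, 23465001 to 23466000 (adjusted p = 0.0970), and 18.8 points at 23884001 to 23885000 (adjusted p = 0.0713). They lie 419 kb apart in the gene, so it has no single direction. Kcnn2, which carries the medium afterhyperpolarisation of hippocampal pyramidal cells, was higher in hippocampus at week 24 by 13.1 points (adjusted p = 0.0909) and stood at -11.1 points in blood at week 8 (adjusted p = 0.00160) in the authors' deposited table, at windows 85 kb apart. Kcnt1, a sodium-activated channel, was higher by 12.6 points in hippocampus at week 24 in the authors' deposited table (adjusted p = 0.0786). The related genes Kcnn1 and Kcnn3 were called in blood at week 8 alone. The authors' deposited table has Kcnn1 at -15.4 points with an adjusted p of 5.25e-06 (chromosome 8, 70865001 to 70866000), at the 5′ limit of the gene and within 10 kb of Ccdc124. Kcnn3 had -10.7 points over its start (adjusted p = 0.0173) and -10.4 points 36 kb further in (adjusted p = 0.0435) in the authors' deposited table. Kcnmb4 and Kcnt2 had no window, nor had the HCN genes Hcn2, Hcn3 and Hcn4.

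In blood at week 8 the channel windows fell into 2 kinds of place. Of the 21 windows in genes with a listed start, 10 lay within 2 kb of one, a limit chosen after the values were seen. All 10 were lower, from -10.6 to -15.4 points in the authors' deposited table, with adjusted p between 4.22e-06 and 0.0639. The list leaves out differences under 10 points, which bounds this range. The 11 others ranged from -18.4 to 15.5 points, with adjusted p between 0.00649 and 0.0959 in the authors' deposited table. Of these, 9 were lower, from -10.3 to -18.4 points in the authors' deposited table. The windows near starts belonged to Kcna5, Kcnc4, Kcnh8, Kcnq5, Kcnk1, Kcnk10, Kcnk13, Kcnn1, Kcnn3 and Dpp6, each a different gene, and the distant ones mostly to Dpp10 and Dpp6. The whole list of that comparison was split by another measure, the distance to either limit of a coding gene. Of its windows no more than 1 kb from such a limit 1883 of 1895 were lower, and 2141 of the 2631 others. Channel windows split in this way were lower in 8 of 8 cases at such limits and in 12 of 15 elsewhere. By that measure, 8 channel windows of 23 (34.8%) were at such limits, and 41.9% of the list. Of all channel windows 87.0% were lower, and of the list 88.9%. The direction and position of the channel windows in this comparison thus stood near those of the list.

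**Figure D5:**
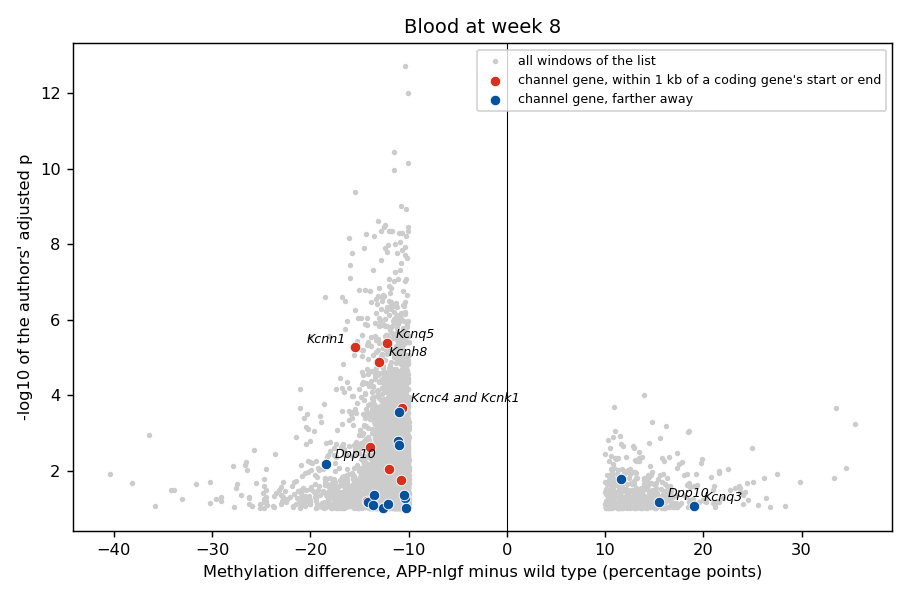
Blood at week 8, with the methylation difference in percentage points (horizontal axis) against the negative log10 of the authors' adjusted p (vertical axis). Grey points are all 4526 windows, red points channel windows no more than 1 kb from either limit of a coding gene and blue points other channel windows. Kcnq5, Kcnn1 and Kcnh8 have the smallest adjusted p of the channel genes, and the 3 higher windows at Kcnip4, Dpp10 and Kcnq3 are not at such limits.

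In the other comparisons the direction of channel windows differed more from that of the lists, on few windows. In hippocampus at week 8, 1 of 5 channel windows was higher (20%, exact 95% Clopper-Pearson interval 0.505 to 71.6, which describes the list and not animals) and 54.6% of all windows. At week 24, 3 of 6 were higher (11.8 to 88.2) and 58.6% of all. In blood at week 3, 2 of 4 were higher (6.76 to 93.2) and 63.2% of all. Each interval holds the share of the whole list. The median size of a channel difference was 11.9 points in hippocampus at week 8 (all windows 13.5), 14.7 points at week 24 (all windows 14.0), 15.1 points in blood at week 3 (all windows 14.9) and 12.2 points at week 8 (all windows 11.7).

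The 46 other genes of the potassium channel families not among the 53, listed from gene nomenclature, had a window in 11 cases (23.9%), where 26.7% of all coding genes had one in some comparison. They are short, with a median length of 15.3 kb. Of their 15 windows 13 were lower and 7 lay inside the gene body. In hippocampus at week 3, where the 53 genes had only Dpp6, the authors' deposited table lists Kcns3 at -12.2 points (adjusted p = 0.0201), Kcne3 at -12.7 points, Kcna7 at -15.1 points and Kcns1 at 18.7 and -11.7 points, the last 3 genes from windows outside the gene body. Kcns genes encode silent subunits that modify Kcnb channels. Kcnip3 stood at 11.8 points over its start in hippocampus at week 24 in the authors' deposited table. In blood at week 8 the authors' deposited table gives Kcnh6 at -10.9 points, Kcnk15 at -11.2 points over its start, Kcnv1 at -13.8 points 6.09 kb away and 3 windows near Kcna7 from -12.3 to -13.1 points. At the starts, then, Kcnip3 in hippocampus was higher and Kcnk15 in blood lower.

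The 10 kb limit left out windows that stood a little farther away. In the authors' deposited table the nearest of these stood at -12.6 points 14.0 kb from Kcnj16 in blood at week 8 and at 13.5 points 15.2 kb from Kcnj2 in blood at week 24. Within the limit but outside the gene body stood Kcnd3 at 4.89 kb and Kcnh8 at 0.709 kb, so no channel window lay between 4.89 and 10 kb. Between 10 and 50 kb there were 17 further pairs of window and gene, and in the authors' deposited table the one with the lowest adjusted p, 2.75e-07, stood at -13.3 points 36.9 kb from Kcnq1 in blood at week 8.

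Marker genes cannot check the labelled tissues here, since the list gives differences and not levels. A window in some comparison was found at 6 of 10 neuron, 0 of 8 astrocyte and 4 of 9 oligodendrocyte lineage markers. It was found at 2 of 7 microglia, 1 of 10 lymphocyte, 1 of 8 myeloid and 2 of 8 erythroid and platelet markers. Over all coding genes the share was 26.7%. Gene length differs between these lists. The called neuron markers Syt1 (513 kb), Rbfox3 (422 kb) and Map2 (267 kb) are longer than any astrocyte marker (133 kb or less). Gad2 (72.9 kb), Gad1 and Tubb3 are not. In blood at week 8, where channel genes had most of their windows, 4 neuron, 2 oligodendrocyte lineage, 1 microglia and 1 lymphocyte marker had one, where 19.5% of coding genes did. Whether the make-up of cells in blood or hippocampus differed between genotypes was not tested.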

How the data were processed

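Whole-genome bisulfite libraries were grouped by tissue, genotype and week from their titles. The submitters' processing notes name mm10 as the build and list FastQC, Trim Galore, Bismark and methylKit, without versions. The authors deposited, per called 1 kb window, a p-value, an adjusted p-value and a methylation difference, a signed score in percentage points, as the file headers name them. How windows were tested, filtered on coverage and adjusted is unstated in those notes. Incomplete bisulfite conversion reads as methylation, and a window absent from the list may have been unchanged, under a limit or thinly covered.

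Windows were assigned to genes with the RefSeq gene table of GRCm38.p6, whose coordinates are those of mm10, for chromosomes 1 to 19 and X (Python 3.11.15, pandas 2.3.3), by overlap or within 10 kb. The 9 windows elsewhere stayed in totals. The assignment was checked on planted windows. No test was run. Members were described by counts beside all 21631 coding genes, which formed the genome-wide background. Strand and starts came from the RefSeq promoter entries. Members, classes and lists were chosen with earlier results of these data known. The rule for named genes took every member with a window (up to 6 per class and comparison), members in 2 or more comparisons, with both signs, over a start or with none, other family genes with a window (some are not reported here), and sequences of members whose start a window covered. Alternatives changed the adjusted p, size and flank limits, merged windows or left out gene ends.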

Additional observations from a re-analysis of the deposited data

How the results depend on the processing

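No paired analysis was possible because the deposited list carries no values per library. The number of channel genes with a window fell, under an adjusted p under 0.05, from 5 to 1 in hippocampus at week 8 (Dpp6) and from 5 to 1 at week 24 (Kcnip4). With differences of at least 15 points it was 0 in hippocampus at week 8, 2 at week 24, 2 in blood at week 3 and 3 in blood at week 8. A 50 kb flank gave 4 in hippocampus at week 3 and 2 in blood at week 24, where Kcnj2 and Kcnj16 share the same window. Leaving out windows no more than 1 kb from either limit of a coding gene, 9 of the 15 genes stayed in blood at week 8. The share of higher channel windows moved to 100% and 0% in hippocampus at weeks 8 and 24 under an adjusted p under 0.05, each on 1 window. In blood at week 8 it moved to 50% with differences of at least 15 points, on 4 windows. Over all comparisons, the 22 genes became 12 without blood week 8 and 13 with an adjusted p under 0.05, settings chosen after the data were seen. The other 42 recomputed counts and shares stayed within 1.5 times the count, or within the interval of the share. No share could be formed in blood at week 24, or in hippocampus at week 8 with differences of at least 15 points. Counting gene bodies alone moved none of these past those limits, and no channel windows of the same sign lay within 10 kb in 1 comparison, so merging them could change nothing. Leaving out gene limits could change nothing outside blood at week 8, since no channel window of the other comparisons stood at one. Stricter limits could not change the count of 0 in blood at week 24. In hippocampus at week 3 the interval, on 1 window, ran from 0 to 97.5, so 50% under the 50 kb flank counted as unmoved. The 42 therefore say little about stability. Fewer windows enter under stricter limits. Depth is unknown, so well and thinly covered windows could not be separated.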
